A study of Mus musculus with 6 samples.

Results

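Mthfd1l, Mthfd2 and Mat2a are genes of one-carbon metabolism, and the m6A listed on their RNA was examined one gene at a time in HCC-initiating cells (HCICs) with and without Mthfd1l. Their rows were taken from the deposited table by position, counted from 0, in a GRCm39 window for each gene, and positions are printed here counted from 1. The windows held 172 of the 567667 listed rows. Of these, 42 lay in the Mthfd1l window (chr10:3923119-4117082), 29 in the Mthfd2 window (chr6:83282674-83302891) and 101 in the Mat2a window (chr6:72409001-72416801).

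HCICs are progenitor-like cells cultured from the livers of male C57BL/6 mice that had received the carcinogen diethylnitrosamine as pups. The mice were control (CTL) animals or double knock-in (DKI) animals carrying M2-C305F and MX-3SA, mutations of MDM2 and MDMX that weaken the activation of p53. The 3 MTH-D samples are labelled Mthfd1l knockout and the 3 MTH-WT samples Mthfd1l wildtype. MTH-D cells were grown from single colonies after lentiviral CRISPR/Cas9 targeting of several Mthfd1l exons, and MTH-WT cells from single colonies given the empty vector, so both groups carry the Cas9 vector. Differences between clones and the knockout cannot be told apart within a pair. The labels number the samples 1 to 3 in each group, but they do not say which number is a CTL or a DKI line. The line named HCIC-2 (DKI) was set aside by the study because its deletion in MTH-D was small, and m6A was compared there in HCIC-1 (CTL) and HCIC-3 (DKI). The labels do not tie the sample numbers to these names, so all 3 numbers were used here and numbers 1 and 3 alone were an alternative. Each sample was 1 direct RNA nanopore library from 1000 ng of total RNA on its own flow cell.

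N6-methyladenosine (m6A) is the commonest internal mark of mRNA. METTL3 and METTL14 place most of it in the motif DRACH, which reads A, G or T, then A or G, then the methylated A, then C, then A, C or T, and m6A is known to gather near the stop codon and in the 3′ UTR. The methyl group comes from S-adenosylmethionine (SAM). MTHFD2, a mitochondrial dehydrogenase and cyclohydrolase, turns methylene-tetrahydrofolate into formyl-tetrahydrofolate, and MTHFD1L releases formate from it. Formate leaves the mitochondrion and supplies the one-carbon units that remethylate homocysteine to methionine. MAT2A, the catalytic subunit of the methionine adenosyltransferase found outside the adult liver's mature hepatocytes, makes SAM from that methionine. The comparison of MTH-D with MTH-WT therefore asks about m6A on the transcripts of the enzymes that feed the methyl donor, 1 of which is the gene that was targeted.

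Mat2a RNA is also known as a sensor of SAM, because METTL16 methylates an adenosine within hairpins of its 3′ UTR. The motif searched for these sites was TACAGAGAA, on the transcript strand only. GENCODE M21 transcripts Mat2a-201 and Mat2a-202 held 5 matches each, all in the 3′ UTR. Of 58797 protein-coding transcripts 3.01% held at least 1 match, and 2 held 4 or more. The 5 matches of Mat2a-201 are shown with 10 bases on each side, since they are the sites of this RNA most closely tied to SAM. Capitals mark the motif, and the methylated A is the fourth letter of it.
Site 1: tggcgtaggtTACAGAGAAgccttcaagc
Site 2: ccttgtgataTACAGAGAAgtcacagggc
Site 3: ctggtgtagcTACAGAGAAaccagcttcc
Site 4: atggcgtaagTACAGAGAAgccatcacct
Site 5: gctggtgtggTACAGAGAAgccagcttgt
That adenosine is base 1353, 2137, 2316, 2431 and 2650 of the transcript at the successive sites. It is followed by G and not by C, so it lies outside DRACH. No genome sequence of GRCm39 was used here, and no listed row was assigned to any of these sites.

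The values are the percent of m6A at each listed position. They come without read counts, so the depth behind them is unknown and no interval was computed, and without a strand, so a row could come from a transcript of either strand. Over the 81446 rows of the whole table that averaged at least 10% over the 6 samples, the sample means were 38.5%, 42.4% and 37.6% in MTH-WT samples 1, 2 and 3 and 37.0%, 43.4% and 35.8% in MTH-D samples 1, 2 and 3. Both samples numbered 2 were thus the highest of their group before any gene was considered. RNA abundance is not measured by a fraction, so neither the loss of Mthfd1l mRNA nor the cell type could be checked from these values.

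Most rows of all 3 genes were close to unmethylated. Rows averaging under 2% made up 32 of 42 in Mthfd1l, 21 of 29 in Mthfd2 and 88 of 101 in Mat2a, against 66.4% of the whole table. Rows averaging at least 10% numbered 4 in Mthfd1l, 3 in Mthfd2 and 1 in Mat2a, which is 9.52%, 10.3% and 0.99% of their rows, against 14.3% of the whole table. The highest row of Mthfd2 averaged 49.1%, that of Mthfd1l 23.6% and that of Mat2a 14.9%. The 3 highest rows held 73.0% of the summed m6A of Mthfd2, 45.4% of that of Mthfd1l and 25.1% of that of Mat2a.

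The m6A of Mthfd1l and Mthfd2 was gathered at one end of the listed rows. Mthfd1l is on the plus strand and the other two on the minus strand in GENCODE M21, whose build is GRCm38, and that strand sets which end is called downstream. When rows less than 1000 bases apart were joined into blocks, Mthfd1l had 12 blocks, and the most downstream of them, 14 rows over 549 bases from 4105545 to 4106093, held 81.1% of the summed m6A and all 4 rows averaging at least 10%. Mthfd2 had 4 blocks, and the most downstream, 17 rows over 964 bases from 83282772 to 83283735, held 95.5% and all 3 such rows. The rows of Mat2a formed a single block from 72409072 to 72414419, in which the row averaging at least 10% stood among rows of low value. Whether the downstream blocks are 3′ UTR was not determined, since no annotation of GRCm39 was used here.

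**Figure D1:**
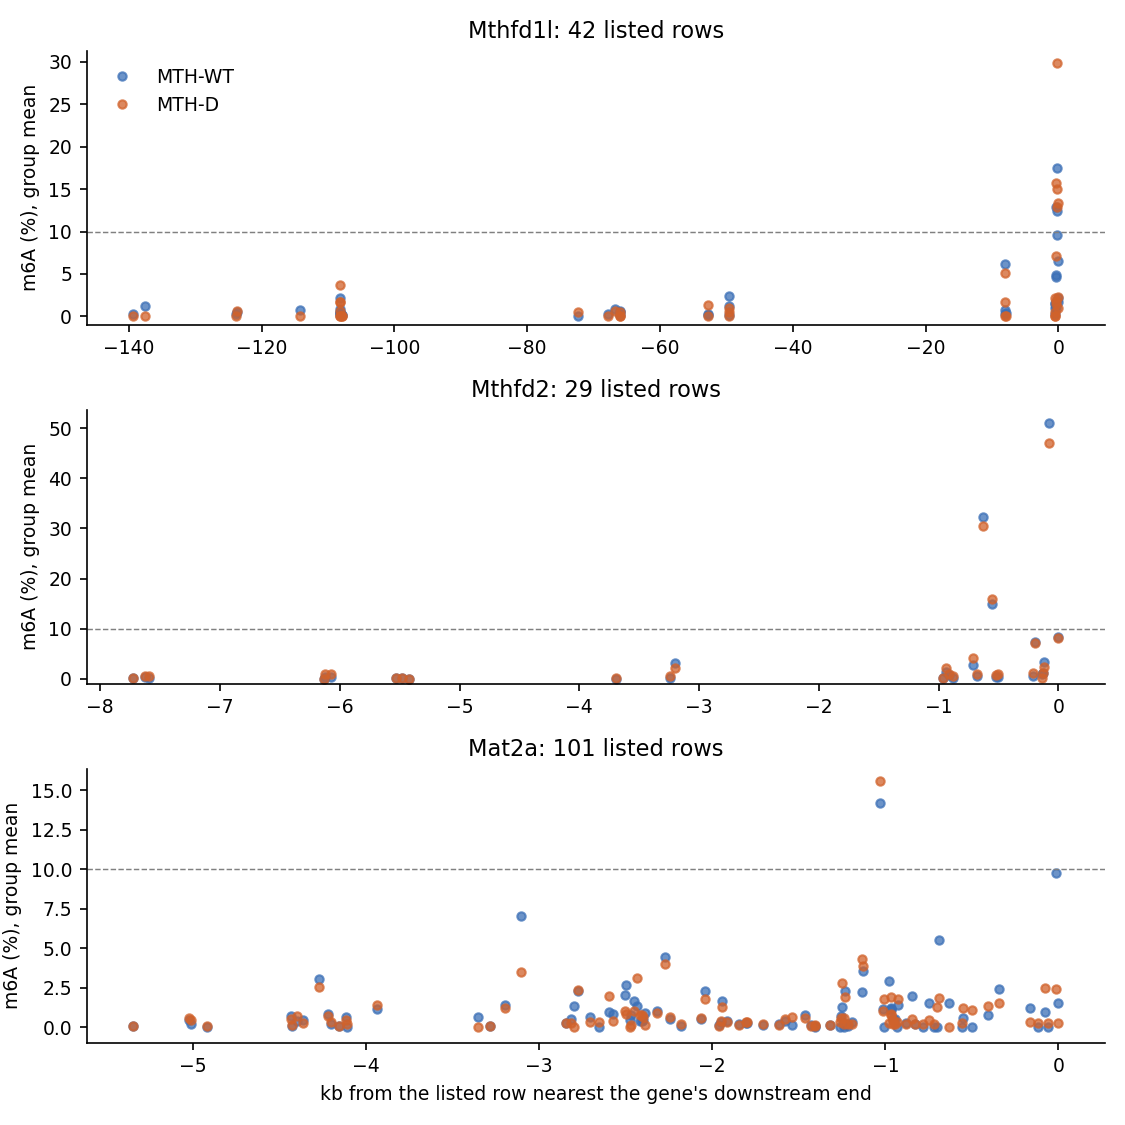
m6A along the 3 genes, as the mean of the 3 MTH-WT samples (blue) and the 3 MTH-D samples (orange) at each listed row, in percent, against the distance in kb from the listed row nearest the gene's downstream end. The dashed line marks 10%, and the points above it lie at the right end in Mthfd1l and Mthfd2, while Mat2a has 1 row above it in both groups.

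The number of rows was set beside the number of DRACH motifs in the spliced transcripts of GENCODE M21. The Mthfd2 transcript, 2085 bases long, has 29 DRACH motifs, of which 16 are in the coding sequence and 13 in the 3′ UTR, and 29 rows were listed in its window. The 3 long Mthfd1l transcripts have 78 to 88, of which 63 are coding, and 42 rows were listed. Mat2a-201 has 48 and Mat2a-202 has 70, fewer than the 101 rows listed in the Mat2a window. In Mat2a, 11 rows lay 1 base from another row, against 2.56% of positions in the whole table, and 0 rows did so in Mthfd1l and in Mthfd2. Because the A of DRACH is followed by C, neighbouring bases of 1 exon cannot both carry it, so at least 1 row of each such pair in Mat2a lies outside the motif. These are counts side by side, and rows were not matched to motifs.

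Mthfd1l was the targeted gene, and all 42 of its rows were listed with a value in each MTH-D sample. Each of the 567667 rows of the whole table likewise had a value in every sample. A listed value is thus no trait of Mthfd1l, and it does not tell how much of its RNA was kept in the knockout. Of the 42 Mthfd1l rows, 7 were above 0 in all 3 MTH-D samples and 17 were at exactly 0 in all 3. Of the 567667 rows of the whole table, these counts were 258991 and 59459. In the MTH-WT samples 12 Mthfd1l rows were above 0 in all 3 and 1 was at 0 in all 3. Over the whole table these counts were 247068 and 71582. The count of Mthfd1l rows at 0 in all MTH-WT samples rests on MTH-WT sample 1, which had 5 rows at 0, while MTH-WT samples 2 and 3 had 26 and 24. Without MTH-WT sample 1, an alternative chosen after seeing the data, 21 Mthfd1l rows were at 0 in both remaining MTH-WT samples and 13 were above 0 in both. The whole table then had 132780 and 271960 such rows. MTH-D samples 1, 2 and 3 had 23, 31 and 30 of the Mthfd1l rows at 0. A listed value shows that a fraction was reported at the position in the knockout library, not how many reads were behind it. A fraction above 0 needs at least 1 read, so reads of unknown strand covered those 7 rows in all 3 MTH-D samples. The study reported that read depth fell sharply at a targeted exon in MTH-D cells of HCIC-1 and HCIC-3. Rows were not assigned to exons here.

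The share of rows at 0 also varied by sample in the other genes. In Mthfd2, MTH-WT sample 2 had 22 of 29 rows at 0, MTH-WT sample 1 had 0, and the remaining samples had 4 to 9. In Mat2a the number ran from 23 of 101 in MTH-D sample 1 to 46 in MTH-D sample 3. Over the whole table the share at 0 was 29.6% to 40.2%, so MTH-WT sample 1 in Mthfd1l, at 11.9%, and MTH-WT sample 2 in Mthfd2, at 75.9%, lay on opposite sides of that range. The number of reads behind a 0 is not given in the table, and its part in these counts was not tested.

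**Figure D2:**
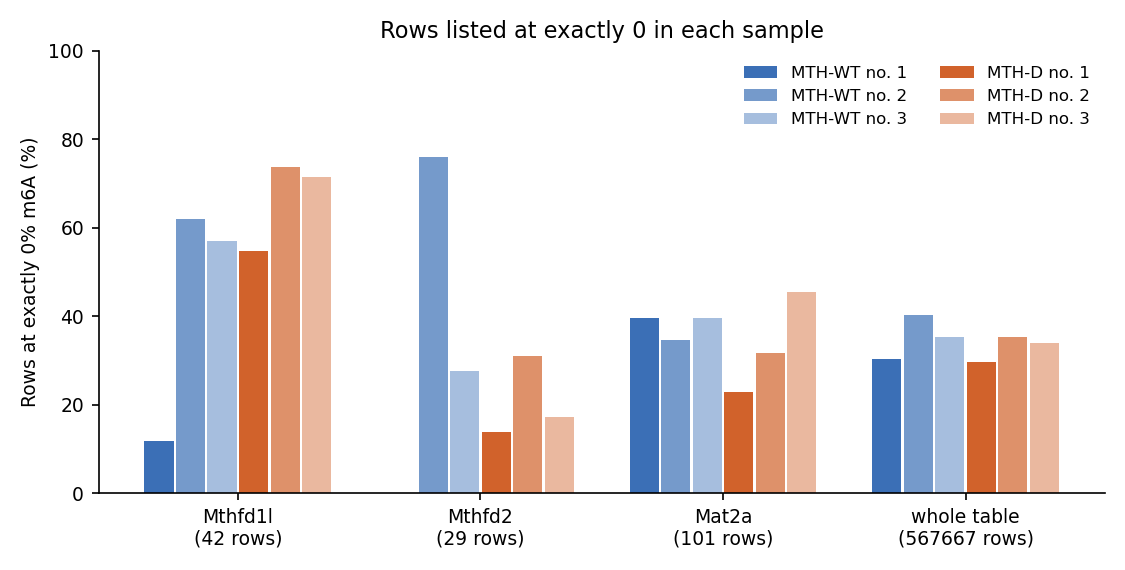
Share of rows listed at exactly 0% m6A, in percent of the rows of each gene and of the whole table, in each of the 6 samples (MTH-WT blue, MTH-D orange, lighter for higher sample numbers). MTH-WT sample 1 is the lowest in Mthfd1l at 11.9% and MTH-WT sample 2 the highest in Mthfd2 at 75.9%, while the whole table lies between 29.6% and 40.2%.

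Over its 4 rows averaging at least 10%, Mthfd1l had a mean m6A of 11.2%, 16.2% and 11.9% in MTH-WT samples 1, 2 and 3 and of 12.8%, 25.0% and 17.3% in MTH-D samples 1, 2 and 3. The MTH-D sample was the higher of each same-numbered pair, by 1.60, 8.80 and 5.44 percentage points, but the groups overlapped, since MTH-D sample 1 lay below MTH-WT sample 2. The group means were 13.1% ± 2.74 (SD, n = 3) and 18.4% ± 6.19 (SD, n = 3). The difference of 5.28 points was smaller than the SD of the MTH-D samples, and a two-sided exact permutation test gave p = 0.20. The smallest p that 3 against 3 can reach in this test is 0.10. The difference rested mostly on MTH-D sample 2, without which it was 1.95 points, and it was 8.07 points without MTH-D sample 1. Of the 4 rows, position 4105815 averaged 9.61% in MTH-WT and 15.0% in MTH-D, so it passed the minimum of 10% only through MTH-D.

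The mean was also taken apart for the last block, which holds all 4 rows averaging at least 10%, and for the other rows. In the last block of 14 rows the mean was 4.80%, 6.97% and 4.87% in MTH-WT and 4.79%, 9.12% and 8.18% in MTH-D, which differ by 1.82 points on average (p = 0.40, exact permutation test). Over the other 28 rows, the highest of which averaged 5.66%, the difference was -0.104 points (p = 0.80, exact permutation test). Of these 28 rows, 3, 24 and 20 were at 0 in MTH-WT samples 1, 2 and 3 and 18, 25 and 25 in MTH-D samples 1, 2 and 3. A difference in points had little room there, and whether the 2 parts differ was not tested. Over all 42 rows it was 0.536 points (p = 0.30, exact permutation test), and 26 rows were lower in MTH-D and 16 higher. Of the 42 rows, 13 were above 0 in MTH-WT sample 1 alone, against 19618 of the 567667 rows of the whole table. Without that sample 11 rows were lower, 18 higher and 13 equal, and the median difference of the rows went from -0.21 to 0.0 points, against -0.01 and 0.013 points over the whole table.

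Within the last block, position 4105912 had the highest m6A of the gene and the largest difference. It was listed at 16.1%, 20% and 16.2% in MTH-WT samples 1, 2 and 3 and at 17.0%, 41.5% and 31.0% in MTH-D samples 1, 2 and 3. MTH-D samples 2 and 3 lay above every MTH-WT sample, and MTH-D sample 1 lay among them. The difference of the means was 12.4 points, or 0.90 on the log2 odds scale (SE 0.47), and it did not pass in limma over the whole table (adjusted p = 0.939). It was 0.51 without MTH-D sample 2 and 1.38 without MTH-D sample 1 (limma, adjusted p = 0.851 and 0.440). Among all rows averaging 20 to 30%, 2.47% were higher in MTH-D by 10 points or more.

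Position 4105815, upstream of it, was listed at 7.20%, 15.5% and 6.12% in MTH-WT and at 8.51%, 20.5% and 16.0% in MTH-D. It was higher in MTH-D in each pair, with a mean difference of 5.39 points. At position 4105780 MTH-WT had 10.8%, 16.7% and 11.1% and MTH-D had 12.4%, 16.7% and 18.2%. These groups overlapped, with a difference of 2.87 points. Position 4105935 had 10.6%, 12.7% and 14.0% in MTH-WT and 13.3%, 21.4% and 4.0% in MTH-D. Its pairs did not share a direction, and the MTH-D samples were both the highest and the lowest of the 6.

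The row just below the limit of 10%, position 4106082, averaged 9.91%. It had 3.23%, 5.56% and 10.7% in MTH-WT and 4.35%, 17.1% and 18.5% in MTH-D, a difference of 6.81 points (limma, adjusted p = 0.939). As at 4105912, MTH-D samples 2 and 3 were the 2 highest and MTH-D sample 1 was not. Of the 4 rows averaging at least 10%, 2 were higher in MTH-D by 5 points or more and 0 were lower by as much. Of these 2, position 4105815 passed the minimum of 10% only through MTH-D (9.61% in MTH-WT, 15.0% in MTH-D). Of all rows averaging at least 10%, 9.28% were higher by 5 points or more and 15.2% were lower, and 2.08% were higher by 10 points or more, as 1 of these 4 was. With the minimum lowered to 5%, 3 of 7 rows were higher by 5 points or more, against 7.88% of all such rows. Rows of 1 block can come from the same reads, so they are not independent of each other.

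**Figure D3:**
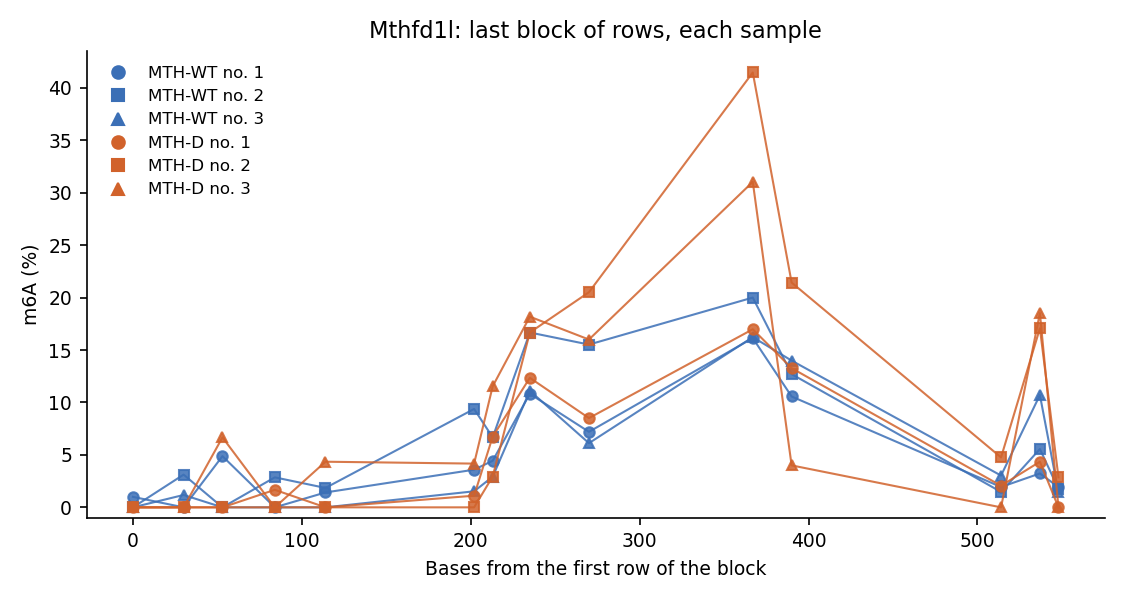
m6A in percent at the 14 rows of the most downstream block of Mthfd1l, against the distance in bases from its first row, with 1 line for each sample (MTH-WT blue, MTH-D orange, a marker for each sample number). At the highest row MTH-D samples 2 and 3 stand at 41.5% and 31.0%, while MTH-D sample 1 stands at 17.0% among the MTH-WT samples, which lie between 16.1% and 20%.

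Set against the library, the difference of Mthfd1l depended on the scale. When each sample's mean over the 81446 rows was subtracted, an alternative chosen after seeing the data, Mthfd1l was at -27.31, -26.15 and -25.76 points in MTH-WT and at -24.25, -18.33 and -18.53 points in MTH-D. The groups then did not overlap, and the difference was 6.04 points (exact permutation test, p = 0.10, the smallest that 3 against 3 allow). When each value was instead divided by the library mean, Mthfd1l was at 29.1%, 38.3% and 31.5% of it in MTH-WT and at 34.5%, 57.7% and 48.3% in MTH-D. These groups overlapped (exact permutation test, p = 0.20).

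Mthfd1l also held 1 row with an unadjusted p under 0.05, in the opposite direction. Position 4056438 was listed at 2.49%, 2.08% and 2.59% in MTH-WT and at 1.41%, 0% and 0% in MTH-D. It was singled out after its values were seen. The groups did not overlap, and the difference was -1.36 on the log2 odds scale (SE 0.41, limma, adjusted p = 0.939). Without MTH-D sample 1, which leaves 2 MTH-D values of 0%, the adjusted p from limma was 0.0803. It was 0.839 to 0.903 when any other single sample was left out. Position 4056438 was the only row of 42 whose groups did not overlap, and among all listed rows 2.88% lay wholly lower in MTH-D and 2.79% wholly higher.

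Mthfd2 carried the highest m6A of the 3 genes. Over its 3 rows averaging at least 10%, the mean was 31.9%, 37.9% and 28.7% in MTH-WT samples 1, 2 and 3 and 29.4%, 39.8% and 24.2% in MTH-D samples 1, 2 and 3. The order of the samples followed that of the library means, with sample 2 the highest and sample 3 the lowest of each group. The group means were 32.8% ± 4.67 (SD, n = 3) and 31.2% ± 7.97 (SD, n = 3), and the difference of -1.68 points was well inside either SD (exact permutation test, p = 0.80). The paired differences were -2.43 points for number 1, 1.93 for number 2 and -4.55 for number 3. As a share of the library mean, Mthfd2 was at 82.8%, 89.5% and 76.4% in MTH-WT and at 79.5%, 91.9% and 67.5% in MTH-D (exact permutation test, p = 0.80).

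The highest row of Mthfd2, position 83282853, was listed at 52.2%, 61.3% and 39.9% in MTH-WT and at 42.4%, 58.8% and 40.0% in MTH-D. The difference of -4.06 points came mainly from the samples numbered 1, which differed by -9.79 points, and the MTH-WT samples alone had an SD of 10.7. Position 83283404 had 28.3%, 38.5% and 30.4% in MTH-WT and 32.1%, 37.5% and 21.8% in MTH-D. Position 83283329 had 15.1%, 14.0% and 15.9% in MTH-WT and 13.8%, 23.2% and 10.8% in MTH-D. The MTH-WT samples agreed within 2 points at this last row, and the MTH-D samples lay on both sides of them. None of the 3 rows differed by 5 points or more, and all had adjusted p-values between 0.985 and 1.00 in limma.

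The next row of Mthfd2 below the limit, position 83282772, averaged 8.23%, with group means of 8.27% and 8.18%. Averaged over all 29 rows, MTH-WT had 4.55% ± 0.458 (SD, n = 3) and MTH-D 4.51% ± 1.17 (SD, n = 3), which differ by -0.0367 points (p = 1.00, exact permutation test). Position 83285974, singled out after its values were seen, was the only row of 29 whose groups did not overlap, at 3.02%, 3.12% and 3.28% in MTH-WT and 1.86%, 1.85% and 2.53% in MTH-D (limma, adjusted p = 0.939). It lies upstream of the block that holds nearly all of the gene's m6A. Among all listed rows 2.88% lay wholly lower in MTH-D and 2.79% wholly higher.

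**Figure D4:**
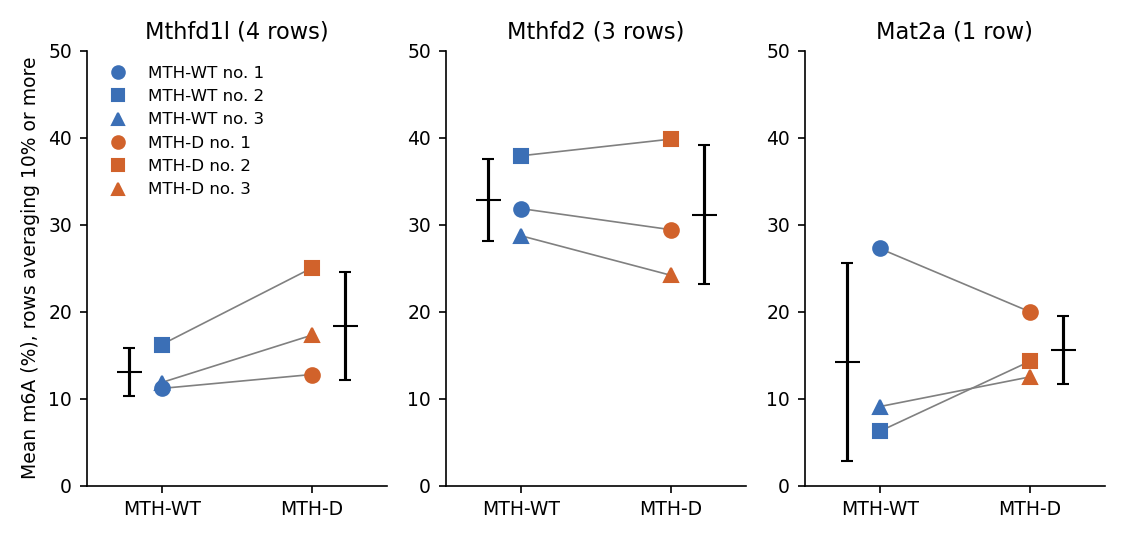
Mean m6A in percent over the rows averaging at least 10%, for each gene and sample, with grey lines joining samples of the same number and black bars for the group mean ± SD (n = 3). All 3 lines go up in Mthfd1l (from 11.2%, 16.2% and 11.9% to 12.8%, 25.0% and 17.3%), whereas 1 line goes up in Mthfd2 and 2 in Mat2a.

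Mat2a had many rows and little m6A. Over all 101 rows the mean was 1.21%, 1.00% and 1.13% in MTH-WT samples 1, 2 and 3 and 1.11%, 0.883% and 0.889% in MTH-D samples 1, 2 and 3. MTH-D was lower in each pair, with differences of -0.0993, -0.117 and -0.246 points, but MTH-D sample 1 lay above MTH-WT sample 2. The group means were 1.11% ± 0.105 (SD, n = 3) and 0.960% ± 0.128 (SD, n = 3), and they differ by -0.154 points (p = 0.20, exact permutation test). The median over the rows differed by -0.0033 points, with 51 rows lower and 50 higher in MTH-D, and leaving out 1 sample moved that median between -0.018 points (without MTH-D sample 1) and 0.057 points (without MTH-WT sample 1, with 42 rows lower and 58 higher).

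The only Mat2a row averaging at least 10%, position 72410102, was listed at 27.3%, 6.25% and 9.09% in MTH-WT and at 20%, 14.3% and 12.5% in MTH-D. Both samples numbered 1 were the highest of their group, and the MTH-WT samples spread over a wider range than the 2 groups differed. The mean of Mat2a at this level is this 1 row. Its read number and strand are not given, so it may not stand for Mat2a RNA as a whole. The difference was 1.39 points (exact permutation test, p = 0.90), and it changed sign with the samples used, since it was -1.93 points over the samples numbered 1 and 3 and 7.93 points without MTH-WT sample 1.

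Position 72409085 averaged 6.06% and was the highest Mat2a row below the limit. It was listed at 10.7%, 9.52% and 8.97% in MTH-WT and at 7.19%, 0% and 0% in MTH-D, so the groups did not overlap and the difference was -7.34 points. It had the only unadjusted p under 0.05 among the 101 rows (-2.52 on the log2 odds scale, SE 0.86, limma, adjusted p = 0.939). Without MTH-D sample 1 the adjusted p from limma was 0.0637, a value that 469 rows shared as the smallest of that computation, and it was 0.839 to 0.903 without MTH-D sample 2 or 3. A row in the same window with 0 in one sample and 14.3% in another, position 72412177, shows how far single values could range. In all, 3 Mat2a rows were wholly lower and 1 wholly higher in MTH-D, against 2.88% and 2.79% of all listed rows. The 8 rows of the 3 genes averaging at least 10% all had overlapping groups, while among all rows at that level 3.38% lay wholly lower and 2.07% wholly higher in MTH-D.

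**Figure D5:**
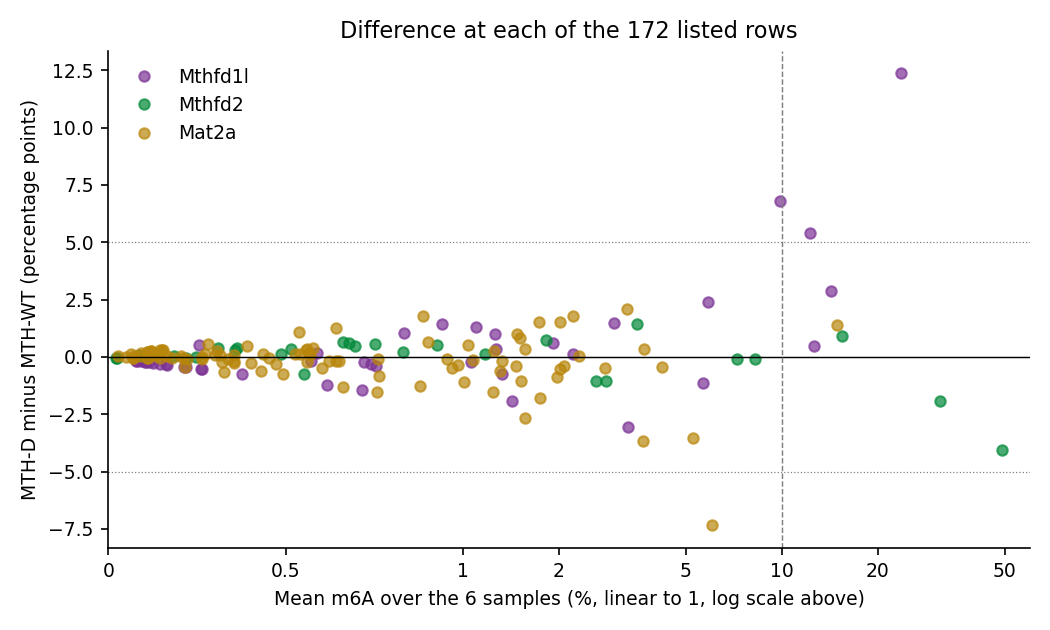
Difference of MTH-D from MTH-WT in percentage points at each of the 172 rows, against the mean m6A over the 6 samples in percent (linear up to 1, log scale above), coloured by gene. The dashed line marks 10% and the dotted lines 5 points either way, and the points beyond the dotted lines are 3 Mthfd1l rows above and 1 Mat2a row below.

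No row passed across the 3 genes: limma, adjusted by the Benjamini-Hochberg method over all 567667 rows, called 0 of the 172 rows and 0 of the whole table (0.0%) at 0.05. An unadjusted p under 0.05 was found at 2 of the 172 rows, 1 in Mthfd1l and 1 in Mat2a, against 18299 rows in all (3.22%). With the sample number as a block, 4 of the 172 rows had an unadjusted p under 0.05, against 3.05% of all rows, and 0 an adjusted one. In all, 6 permutation tests were run on the gene means given over rows averaging at least 10% and over all rows, and their unadjusted p-values lay between 0.20 and 1.00. Differences between genes in the effect of the knockout were not tested.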

How the data were processed

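The table deposited by the authors gives the fraction of m6A per position, on a scale of 0 to 1 with up to 4 decimals, in a column for each of 6 direct RNA libraries and with no coverage. Per the submitters' processing notes, minimap2 2.26, SAMtools and the build GRCm39 were used, and the basecaller, modification model and coverage filter are not given in the sources used here. Positions below 59 Mb of chromosome 4 were compared with exonic DRACH adenosines of GENCODE M21 (GRCm38), where 93.8% matched when counted from 0 and 0.875% when counted from 1. The comparison was made to tell counting from 0 from counting from 1. No other chromosome was compared, so whether the builds share positions in the gene windows was not tested.

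Fractions were converted to percent. Gene windows were given in GRCm39, and no position was converted between builds. The members and lists were chosen with earlier results of these data known. Gene means over rows averaging at least 10% over the 6 samples were compared by two-sided exact permutation tests (scipy 1.17.1). Rows were tested over the whole table by limma 3.58.1 (R 4.3.3), applied to log2 odds with 1 point added to each share and Benjamini-Hochberg adjustment, and the test was tested on simulated data. Rows named were the 5 highest and the 3 with the largest difference among those averaging at least 10% in each gene. Others named are the row just below the limit in each gene, and rows said to be singled out after their values were seen, together with position 72412177. The study calls the cells paired, so the numbers, which come from the labels, were also used as pairs. In the pairing check, deviations from the group mean had correlations of 0.164, 0.223 and 0.133 between samples sharing a number. Between samples of unlike numbers the correlations ran from -0.141 to -0.00179. Whether samples of a group are separate lines, clones or cultures is not stated beyond their labels. The p-values measure the spread between these samples, and the source of that spread is not known. The list of other one-carbon genes and the test over all genes were not analysed here, since no annotation of GRCm39 was used. The pairing by number, the sample left out, the minimum level, the offset and the scale were varied as alternatives.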

Additional observations from a re-analysis of the deposited data

How the results depend on the processing

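The difference of Mthfd1l stayed positive in all 17 alternatives run, from 1.95 to 8.07 points when 1 sample was left out, and it was 0.536 points over every row. With a minimum of 20% it was 12.4 points, which leaves 1 row, position 4105912. That row averaged 17.5% in MTH-WT and 29.8% in MTH-D. It passed this minimum only through MTH-D, so a positive difference was built into that alternative. Not all of the 17 could change the difference. The replicate block and the removal of rows with a value of exactly 0 or 100%, which removed none, left it at 5.28 points. The difference of Mthfd2 ranged from -6.03 to 1.80 points when 1 sample was left out, and was reversed without MTH-WT sample 2 (0.854) and without MTH-D sample 3 (1.80). That of Mat2a, a single row, ranged from -2.58 to 7.93 points and was reversed without MTH-WT sample 2 (-2.58), MTH-WT sample 3 (-1.16) or MTH-D sample 1 (-0.808), over the samples numbered 1 and 3 (-1.93), over every row (-0.154) and, chosen after seeing the data, with a minimum of 5% (-3.16). The cause was not tested.

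With the replicate block the differences were 5.28, -1.68 and 1.39 points for Mthfd1l, Mthfd2 and Mat2a, which complete pairs make equal to the unpaired ones (exact sign-flip permutation tests, p = 0.25, 0.50 and 0.75, where 3 pairs cannot go below 0.25). The block changed no call. The count of rows with an adjusted p under 0.05 was 0 in all 11 alternatives of the limma test.

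For single rows, the limma difference in log2 odds was reversed at Mthfd1l position 4105935 without MTH-D sample 3 (0.51, where leaving out 1 sample gave -0.72 to 0.51) and in percent without a log transform (0.48 points). It was reversed without MTH-WT sample 2 at Mthfd2 positions 83282853 (0.059), 83283329 (-0.022) and 83283404 (0.050) and at Mat2a position 72410102 (-0.10). It was also reversed at 83283329 without MTH-D sample 2 (-0.32) and over the samples numbered 1 and 3 (-0.38), at 83283404 without MTH-D sample 3 (0.16), and at 72410102 over the samples numbered 1 and 3 (-0.045).

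Leaving out 1 sample gave -0.57 to 0.059 at 83282853, -0.32 to 0.30 at 83283329, -0.38 to 0.16 at 83283404 and -0.10 to 1.06 at 72410102. The alternatives that need an annotation of GRCm39, namely exonic rows only and the test over all genes with its own alternatives, were not run, and a minimum of 20% left no Mat2a row. The unknown depth limits every single row.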
